A study of Mus musculus with 9 samples.

Results

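Myelin is rich in galactolipids, and 7 genes that make or break them down were followed in the RNA of the mouse cerebellum. The genes were given as a list of symbols, chosen by a rule with their levels in the 9 libraries in view, mainly those of IGF-1 treated and untreated 84Q mice, and were matched to the counts by gene identifier. All 7 were found among the 37816 genes in the counts, and all 7 passed the filter on low counts that left 19353 genes for testing. Of the 7, 4 act in synthesis (Cers2, Fa2h, Ugt8a and Gal3st1) and 3 in breakdown (Arsa, Galc and Psap).

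The series holds cerebellar RNA of 9 transgenic mice on a C57BL/6 background, 3 in each of 3 groups, taken at 18 months of age. All mice carry the whole human ATXN3 gene on a yeast artificial chromosome, with 15 CAG repeats in 15Q mice and 84 in 84Q and 84Q+IGF1 mice, a model of spinocerebellar ataxia type 3. The 84Q+IGF1 mice were injected in the abdomen once a week from 9 months of age with IGF-1 at 50 mg/kg, and the remaining mice are described as injected with PBS in the protocol and as untreated in the sample labels. The human transgene itself was not analysed here, and the tissue is the cerebellum as a whole, in which oligodendrocytes are mixed with neurons and other glia. The libraries held between 17482654 and 58269196 counts on genes, so that a floor of 3 counts was 0.0515 to 0.172 CPM (the count relative to the total of its library, TMM-adjusted), and the member with the fewest reads, Gal3st1, had between 100 and 333 counts.

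Galactosylceramide and its sulfated form, sulfatide, are the typical glycolipids of the myelin sheath. Oligodendrocytes make them from ceramide with very long and often 2-hydroxylated acyl chains, by adding galactose in the endoplasmic reticulum and then sulfate in the Golgi apparatus. In lysosomes the sulfate is removed first and the galactose next, each step with the help of small activator proteins, and inherited loss of these steps causes leukodystrophies in humans.

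Cers2 (ENSMUSG00000015714.11, chromosome 3, 95314791 to 95323599, plus strand, in GRCm38 as all positions here) encodes the ceramide synthase for very long acyl chains. Fa2h (ENSMUSG00000033579.16, chromosome 8, 111345135 to 111393824, minus strand) encodes the fatty acid 2-hydroxylase. Ugt8a (ENSMUSG00000032854.12, chromosome 3, 125865271 to 125938619, minus strand) encodes the galactosyltransferase that forms galactosylceramide. Gal3st1 (ENSMUSG00000049721.14, chromosome 11, 3983636 to 3999326, plus strand) encodes the sulfotransferase that turns it into sulfatide. Arsa (ENSMUSG00000022620.14, chromosome 15, 89472476 to 89477425, minus strand) encodes arylsulfatase A, which removes the sulfate. Galc (ENSMUSG00000021003.10, chromosome 12, 98202294 to 98259459, minus strand) encodes galactosylceramidase, which removes the galactose. Psap (ENSMUSG00000004207.14, chromosome 10, 60277627 to 60302597, plus strand) encodes prosaposin, the precursor of the saposin activators.

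Promoter sequence was found in RefSeq for 6 of the 7 genes, all but Fa2h. The 250 bases before a start of transcription are shown for 2 synthesis genes and 2 breakdown genes, to set both directions of the pathway side by side. Both strands were searched for CACGTG (the core of the element shared by many lysosomal genes), the GC box GGGCGG, the Sox recognition word ACAAAG and the TATA box TATAAA, and matches are in capitals. The windows lie at chr3:125938653-125938902 (minus strand, Ugt8a), chr11:3983386-3983635 (plus strand, Gal3st1), chr15:89477425-89477674 (minus strand, Arsa) and chr10:60277378-60277627 (plus strand, Psap) of GRCm38.p6.
Ugt8a: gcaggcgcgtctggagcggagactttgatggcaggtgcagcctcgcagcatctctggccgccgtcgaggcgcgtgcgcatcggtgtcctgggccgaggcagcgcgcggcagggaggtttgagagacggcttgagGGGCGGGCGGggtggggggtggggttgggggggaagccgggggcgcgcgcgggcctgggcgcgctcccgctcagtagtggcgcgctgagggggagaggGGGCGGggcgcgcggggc
Gal3st1: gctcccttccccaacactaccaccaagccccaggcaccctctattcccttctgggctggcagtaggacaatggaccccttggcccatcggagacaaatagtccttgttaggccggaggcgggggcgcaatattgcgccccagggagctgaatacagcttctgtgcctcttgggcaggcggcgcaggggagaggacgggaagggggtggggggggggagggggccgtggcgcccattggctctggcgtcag
Arsa: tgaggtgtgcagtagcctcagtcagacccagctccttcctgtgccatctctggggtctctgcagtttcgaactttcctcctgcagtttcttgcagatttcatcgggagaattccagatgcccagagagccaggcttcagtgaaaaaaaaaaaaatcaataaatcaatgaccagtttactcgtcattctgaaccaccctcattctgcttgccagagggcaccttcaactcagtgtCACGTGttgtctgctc
Psap: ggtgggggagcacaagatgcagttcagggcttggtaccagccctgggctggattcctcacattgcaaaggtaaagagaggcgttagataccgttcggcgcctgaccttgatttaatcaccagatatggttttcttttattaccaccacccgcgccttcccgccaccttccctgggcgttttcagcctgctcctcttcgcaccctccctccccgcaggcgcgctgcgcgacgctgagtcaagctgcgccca

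CACGTG stood 16 bases before the start of Arsa and 129 bases before the first start of Cers2, and in no other window of a member. It occurred in 6.02% of the 32851 mouse promoter windows searched. The GC box stood 116, 112 and 18 bases before the start of Ugt8a, where the first and second matches share bases, and also in the windows of Cers2 and Galc, against 32.7% of all windows. The window of Ugt8a held 76.8% G and C, that of Gal3st1 65.6%, that of Psap 58.8% and that of Arsa 48.4%. ACAAAG (16.5% of all windows) and TATAAA (12.4%) were in none of the members' windows.

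Exons of Cers2 share 144 bases with 6330562C20Rik and 75 bases with Setdb1 on the opposite strand. Arsa shares 690 bases with C230037L18Rik, and Galc shares 400 bases with Gm47439. The libraries were strand-specific, but the strand setting of the counting is not given in the sources used here, so reads of these genes and of their antisense partners cannot be told apart. Near-identical copies were rare: 0.261% of the 31-base words of Galc occurred in another gene, and 0 in the other members.

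On the TPM scale, which divides counts by gene length before scaling, Psap was the most abundant member, at 1927 ± 89.2 TPM (SD, n = 9 mice). It was followed by Cers2 at 66.2 ± 3.81 TPM, Fa2h at 54.3 ± 7.52, Arsa at 44.1 ± 4.45, Ugt8a at 27.5 ± 4.89, Gal3st1 at 11.7 ± 2.01 and Galc at 8.48 ± 0.444. The ranges of Cers2 and Fa2h overlapped, as did those of Fa2h and Arsa and those of Gal3st1 and Galc, whereas Psap, Ugt8a and the pair below Ugt8a were separated from their neighbours in all 9 libraries. The variation of CPM across libraries was largest for Gal3st1 (coefficient of variation 17.7%), Ugt8a (17.0%) and Fa2h (13.5%), and smallest for Galc (4.53%) and Psap (5.98%).

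Some libraries stood apart in RNA of other tissues. The summed level of 10 choroid plexus genes, such as Ttr, was 511 and 497 CPM in 15Q replicates 1 and 3 and 1056 CPM in 84Q replicate 2, against 28.3 to 68.6 CPM in the 6 other libraries. The 9 intestinal epithelium genes summed to 27.0 to 42.5 CPM in 15Q, 5.31 to 6.54 in 84Q and 4.90 to 6.36 in 84Q+IGF1, with Fabp2 and Apoa4 at 0 in every 84Q and 84Q+IGF1 library. Epidermis, skeletal muscle and meninges genes were likewise more abundant in 15Q, with 5 of 8, 6 of 7 and 6 of 7 genes called lower in the mean of the other groups. Of the cerebellum's own cells, the summed Purkinje cell genes stood at 7426 to 8321 CPM and the granule cell genes at 5374 to 6296 CPM. Schwann cells, the myelinating cells of nerves, left little RNA, with 3.77 to 6.39 CPM over the 5 of 6 genes in the counts.

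The first question was how the synthesis genes stood with IGF-1. Since the 84Q+IGF1 against 84Q difference was known when the genes were chosen, it is described here without a test. All 4 synthesis genes were lower in each 84Q+IGF1 library than in each 84Q library, and the 3 breakdown genes overlapped. Over all genes, 4.50% were lower without overlap and 3.98% higher in this comparison.

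**Figure D1:**
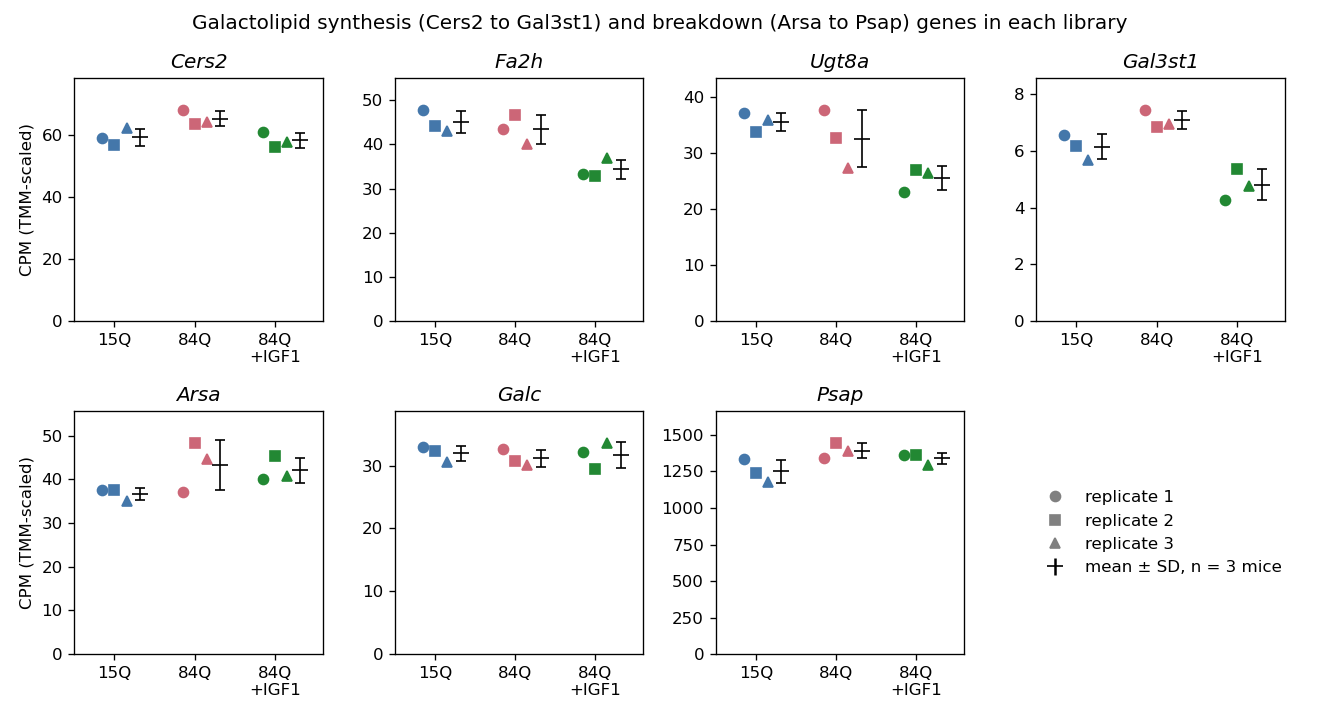
CPM (TMM-scaled, each vertical axis starting at 0) of the 7 genes in each library of each group, with the mean and SD of the 3 mice beside the points. Fa2h, Ugt8a and Gal3st1 are lower in all 3 84Q+IGF1 libraries than in all libraries of both other groups, while Galc lies between 29.5 and 33.6 CPM throughout.

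Cers2 stood at 59.2, 56.7 and 62.2 CPM in the 15Q libraries, at 68.1, 63.6 and 64.4 CPM in the 84Q libraries and at 60.9, 56.3 and 57.8 CPM in the 84Q+IGF1 libraries. The 84Q libraries were thus the highest, and the 15Q and 84Q+IGF1 libraries overlapped. The log2 fold change in 84Q+IGF1 against 84Q was −0.17 (standard error 0.06).

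Fa2h stood at 47.8, 44.1 and 43.1 CPM in 15Q, at 43.5, 46.7 and 40.1 CPM in 84Q and at 33.3, 32.8 and 36.8 CPM in 84Q+IGF1. All 3 84Q+IGF1 libraries lay below all 6 others, and 15Q and 84Q overlapped. The log2 fold change against 84Q was −0.34 (standard error 0.08), from a mean of 43.4 ± 3.29 CPM (SD, n = 3 mice) to 34.3 ± 2.17 CPM.

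Ugt8a stood at 37.1, 33.8 and 35.9 CPM in 15Q, at 37.7, 32.7 and 27.5 CPM in 84Q and at 23.1, 27.0 and 26.6 CPM in 84Q+IGF1. The 84Q libraries spread widely for this gene, and 84Q replicate 3 lay just above the highest 84Q+IGF1 library. The log2 fold change against 84Q was −0.35 (standard error 0.11), with means of 32.6 ± 5.14 and 25.6 ± 2.11 CPM.

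Gal3st1 stood at 6.57, 6.18 and 5.69 CPM in 15Q, at 7.44, 6.85 and 6.95 CPM in 84Q and at 4.29, 5.38 and 4.76 CPM in 84Q+IGF1. It is the sole member whose 3 groups were all separate, with 84Q highest and 84Q+IGF1 lowest. Its log2 fold change against 84Q, −0.56 (standard error 0.13), was the largest of the members.

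Of the breakdown genes, Arsa stood at 37.5, 37.6 and 35.1 CPM in 15Q, at 37.2, 48.3 and 44.6 CPM in 84Q and at 40.1, 45.3 and 40.8 CPM in 84Q+IGF1. In 84Q, replicate 1 lay among the 15Q libraries, and the 84Q+IGF1 libraries lay within the range of 84Q. The log2 fold change in 84Q+IGF1 against 84Q was −0.04 (standard error 0.09).

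Galc varied between 29.5 and 33.6 CPM over all 9 libraries, and its mean was 31.9 ± 1.22 CPM in 15Q mice, 31.2 ± 1.39 in 84Q mice and 31.7 ± 2.08 in 84Q+IGF1 mice. Its groups overlapped in each pair, and its log2 fold change in 84Q+IGF1 against 84Q was 0.03 (standard error 0.07). Psap stood at 1334, 1239 and 1179 CPM in 15Q, at 1340, 1444 and 1388 CPM in 84Q and at 1361, 1360 and 1295 CPM in 84Q+IGF1. The 84Q libraries all lay above 15Q, 84Q replicate 1 only just, and overlapped with 84Q+IGF1. Psap differed by −0.06 on the log2 scale (standard error 0.06) in 84Q+IGF1 against 84Q.

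As a single measure, the mean log2 CPM of the synthesis genes minus that of the breakdown genes was −2.03, −2.09 and −1.99 in 15Q. It was −1.96, −2.17 and −2.21 in 84Q and −2.50, −2.42 and −2.40 in 84Q+IGF1. All 84Q+IGF1 libraries were thus below the other 6. Since the genes were chosen with these levels in view, this separation is a description and no further support. Without the 3 libraries rich in choroid plexus RNA, the 84Q+IGF1 against 84Q log2 fold changes were −0.18 for Cers2, −0.28 for Fa2h, −0.35 for Ugt8a and −0.58 for Gal3st1. Among all 19353 genes, edgeR called 0 (0.00%) in this comparison (adjusted p under 0.1, fold of at least 1.5). Of them, 905 had an unadjusted p under 0.05 in edgeR. DESeq2, run on the 37816 genes in the counts and not on the filtered set, called 6. With no filter on low counts edgeR called 168 genes, and it called 9 without 84Q replicate 2 and 9 without the 3 libraries rich in choroid plexus RNA.

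A comparison orthogonal to that one asked how the expanded repeat, with or without IGF-1, stood against 15Q, as the mean of 84Q and 84Q+IGF1 against 15Q, although the 15Q levels were also in view when the genes were chosen. By both thresholds (adjusted p under 0.1 and a fold of at least 1.5) 0 of the 7 members were called, against 3.51% of all genes tested. That share rested on 680 genes, which became 321 without 15Q replicate 2, 275 without 15Q replicate 3 and 238 without the 3 libraries rich in choroid plexus RNA. By the adjusted p alone, 2 of 7 passed, against 9.75% of all genes, and both were lower, as were 6.11% of all genes. These were Fa2h (−0.22, standard error 0.07, adjusted p = 0.0795) and Ugt8a (−0.30, standard error 0.09, adjusted p = 0.0872), with values on the log2 scale. No member was without overlap between the 15Q libraries and the other 6, where 5.96% of all genes were higher and 6.34% lower. In Fa2h and Ugt8a the overlap came from 84Q, and the 84Q+IGF1 libraries were all below 15Q. Arsa stood at 0.22 (adjusted p = 0.14), and its adjusted p was under 0.1 with DESeq2 (0.0992), with no filter on low counts (0.039) and without 84Q replicate 1 (0.0408). Psap stood at 0.13 (adjusted p = 0.196), and Cers2, Gal3st1 and Galc lay between −0.07 and 0.06. With 1 library left out, Fa2h passed in 2 of 9 fits, those without 84Q replicate 2 or 84Q+IGF1 replicate 3. Ugt8a passed in 3 of 9, those without 84Q replicate 1, 84Q+IGF1 replicate 2 or 84Q+IGF1 replicate 3. Without the 3 libraries rich in choroid plexus RNA, Fa2h stood at −0.21 (adjusted p = 0.583) and Ugt8a at −0.22 (adjusted p = 0.722).

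**Figure D2:**
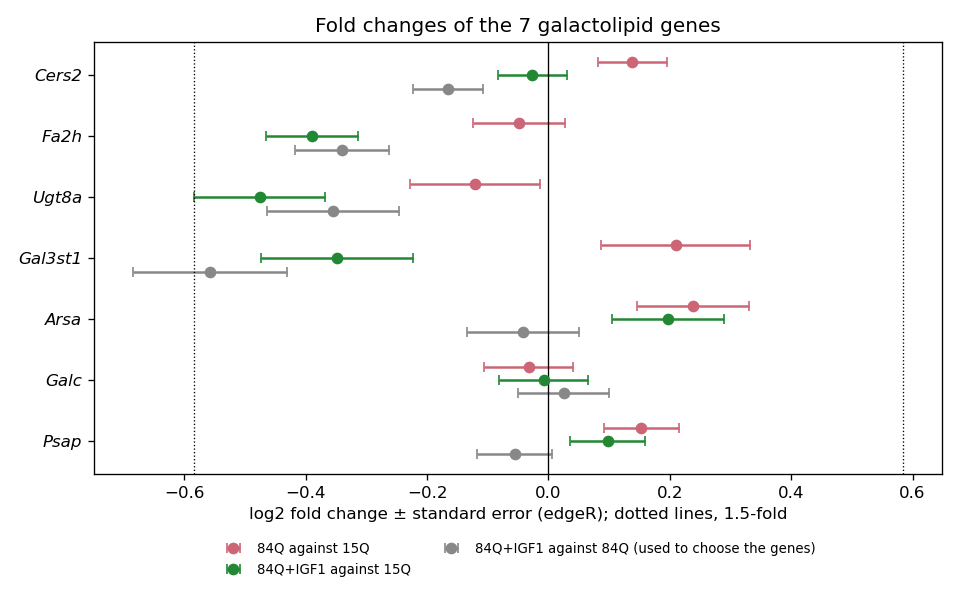
Log2 fold change with its standard error (horizontal axis, edgeR, 3 mice a group) of the 7 genes (vertical axis) in the 3 pairwise comparisons, of which 84Q+IGF1 against 84Q (grey) was known when the genes were chosen. Fa2h, at −0.39, and Ugt8a, at −0.48, are lower in 84Q+IGF1 than in 15Q, and all points lie within the dotted lines at a fold of 1.5.

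In 84Q against 15Q, which shares the 84Q libraries with the comparison known at the choice, 0 of 7 members were called, against 2.14% of all genes. By the adjusted p alone the count was also 0 of 7, against 4.80%. Without overlap, Cers2, Gal3st1 and Psap were higher (3 of 7, against 11.9% of all genes), with log2 fold changes of 0.14, 0.21 and 0.15 and adjusted p of 0.21, 0.378 and 0.204. Arsa, at 0.24, was not separate (adjusted p = 0.19), and Fa2h, Ugt8a and Galc lay between −0.12 and −0.03. These values moved with single libraries: without 84Q replicate 1, Ugt8a stood at −0.24 (adjusted p = 0.216) and Arsa at 0.34, where it passed the adjusted p alone (0.0612), and without 84Q replicate 3, Ugt8a stood at −0.012 and Fa2h at 0.0058. Arsa stood at 0.16 without 84Q replicate 2, at 0.12 without the 3 libraries rich in choroid plexus RNA, and passed with no filter on low counts (adjusted p = 0.074).

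In 84Q+IGF1 against 15Q, which shares the 84Q+IGF1 libraries with the comparison known at the choice, 0 of 7 were called, against 2.25% of all genes. By the adjusted p alone Fa2h and Ugt8a passed (2 of 7, against 3.67% of all genes), and both were lower, as were 2.63% of all genes. The log2 fold change was −0.39 for Fa2h (standard error 0.08, adjusted p = 0.0235) and −0.48 for Ugt8a (standard error 0.11, adjusted p = 0.0495), or 0.763 and 0.719 of the 15Q level. Gal3st1 was also lower without overlap, at −0.35, but did not pass (adjusted p = 0.18), which makes 3 of 7 lower without overlap against 12.9% of all genes. Arsa was higher without overlap at 0.20 (adjusted p = 0.295, against 11.8% of all genes), and Cers2, Galc and Psap lay between −0.03 and 0.10. In this whole tissue, fewer cells of a type and less RNA per cell cannot be told apart.

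Fa2h passed the adjusted p in all 9 fits that left out 1 library, at log2 fold changes between −0.44 and −0.34 and adjusted p of at most 0.091. Ugt8a passed in 6 of the 9 and was lost without 15Q replicate 2 (adjusted p = 0.108), without 15Q replicate 3 (0.17) and without 84Q+IGF1 replicate 1 (0.17). Without the 3 libraries rich in choroid plexus RNA, which left 15Q with 1 library assumed to vary like the other groups, Fa2h stood at −0.36 (adjusted p = 0.396) and Ugt8a at −0.39 (0.651). With the choroid plexus list as a covariate they stood at −0.30 (adjusted p = 0.264) and −0.40 (0.364). The part of the choroid plexus and of the other tissue RNA in 15Q in these results was not tested.

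Oligodendrocytes are the cells of the brain that make galactolipids, so the members were set beside 23 genes of oligodendrocytes and their myelin proteins. This list had 23 of 23 genes below 0 in 84Q+IGF1 against 84Q. Of these, 10 did not overlap, against 4.50% of all genes. The median log2 fold change of the list was −0.27 against −0.0033 over all genes. As the list was chosen with earlier results of these data known, these counts are a description. The genes of the list summed to 4979 to 5305 CPM in 15Q. Replicates 1 to 3 summed to 6116, 5063 and 4966 CPM in 84Q and to 3874, 4720 and 4943 CPM in 84Q+IGF1. Replicate 1 was thus the highest library of 84Q and the lowest of 84Q+IGF1, and the remaining libraries of these groups lay closer together. Other cell lists were also below 0 there. These were 10 of 10 microglia genes (median −0.20), 7 of 7 meninges genes (−0.41) and 10 of 10 choroid plexus genes (−3.34). In the same order, 2, 1 and 0 genes were lower without overlap, against 4.50% of all genes. The choroid plexus sum was 1056 CPM in 84Q replicate 2. In 84Q replicates 1 and 3 this sum lay within the 28.3 to 68.6 CPM of 84Q+IGF1. The part of these lists in the members' values was not tested. The synthesis members had a median of −0.35 and the breakdown members of −0.04 in the same comparison.

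Against 15Q, the oligodendrocyte genes went in both directions, and in the mean of 84Q and 84Q+IGF1 4 of 23 passed the adjusted p alone as higher and 5 as lower, against 9.75% of all genes in either direction. In 84Q against 15Q the list's median was 0.18 against −0.0019 over all genes, and Olig1, Olig2 and Nkx6-2, transcription factors of the lineage, passed the adjusted p alone, at between 0.52 and 0.56. In 84Q+IGF1 against 15Q the median was −0.12 against −0.0051, and 1 of 23 genes was called, against 2.25% of all genes. That gene was Aspa, the aspartoacylase that frees acetate for myelin lipids, which fell by 0.82 in log2 units (adjusted p = 0.0081).

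Mal, Tspan2 and Cldn11, membrane proteins of myelin, passed the adjusted p alone in 84Q+IGF1 against 15Q, at −0.36, −0.34 and −0.41. Mbp, the most abundant gene of the list, stood at 2230 ± 91.7 CPM in 15Q mice, 2527 ± 357 in 84Q and 2090 ± 282 in 84Q+IGF1 and did not pass (−0.09, adjusted p = 0.691), and Mobp did not either (−0.44, adjusted p = 0.155).

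**Figure D3:**
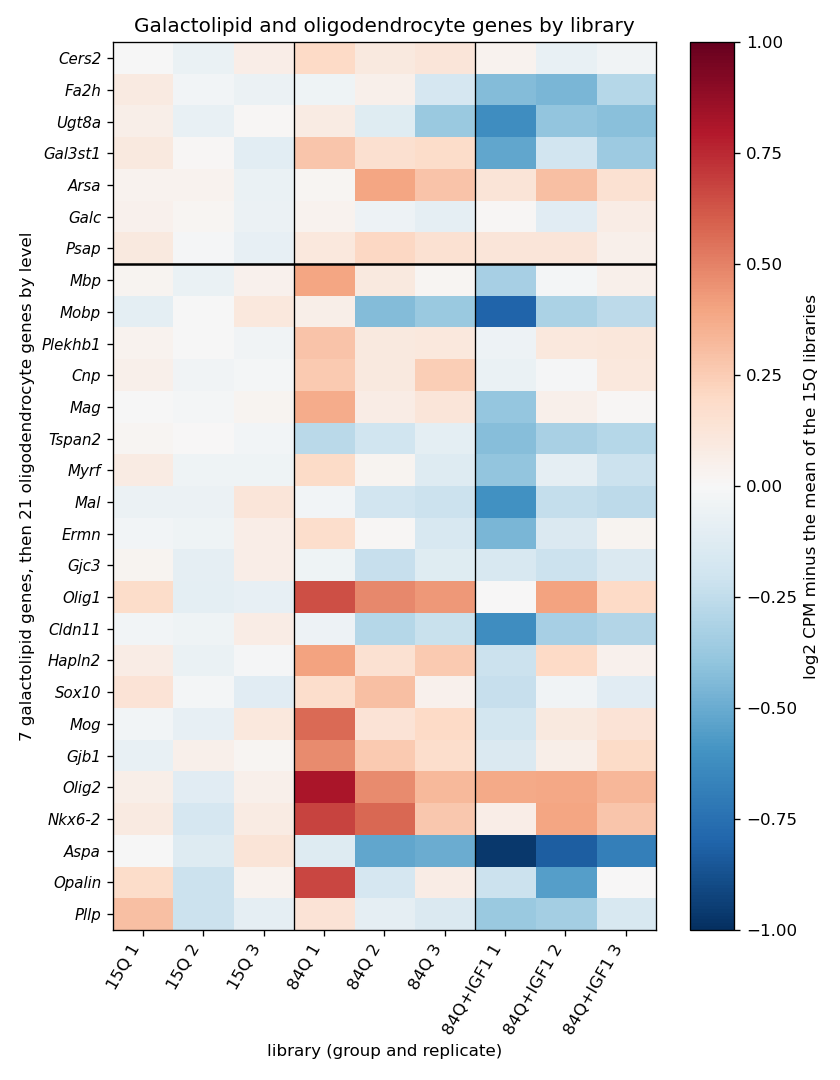
Log2 CPM minus the mean of the 15Q libraries (colour, drawn values between −0.96 and 0.81) for the 7 galactolipid genes and, under the line, 21 of the 23 oligodendrocyte genes in order of level, in each library. In 84Q+IGF1 the blue of Fa2h, Ugt8a and Gal3st1 is shared by Mal, Cldn11 and Aspa, while Olig2 and Nkx6-2 are red in both 84Q groups.

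On the scale of the oligodendrocyte list (log2 CPM minus the mean log2 CPM of its 23 genes), the 84Q+IGF1 minus 84Q difference was −0.08 for Fa2h and −0.08 for Ugt8a. Gal3st1 had the lowest, at −0.30, with 84Q+IGF1 libraries between −3.58 and −3.36 and 84Q libraries between −3.27 and −3.11. Cers2 stood at 0.10, and the breakdown genes at 0.22 for Arsa, 0.28 for Galc and 0.20 for Psap. The mean log2 CPM of the list was 6.18, 5.94 and 5.92 in 84Q and 5.60, 5.81 and 5.85 in 84Q+IGF1. Replicate 1 of each group thus weighed most on these differences. A fit on this scale moved the median of all genes to 0.26 in this comparison, so the breakdown genes lay near that general shift, and Cers2, Fa2h, Ugt8a and Gal3st1 below it.

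Against 15Q on this scale, Ugt8a lay at −0.75 to −0.73 in 15Q, −1.14 to −0.91 in 84Q and −1.11 to −1.05 in 84Q+IGF1. Both 84Q groups were thus below 15Q without overlap, as was Galc in 84Q (2 of 7 members, against 20.6% of all genes lower and 1.21% higher on this scale). In 84Q+IGF1, Fa2h and Ugt8a were lower without overlap (2 of 7, against 5.82% of all genes) and Arsa and Psap higher (2 of 7, against 22.1%). In a fit scaled to this list, 84Q+IGF1 against 15Q gave −0.25 for Fa2h (adjusted p = 0.304) and −0.34 for Ugt8a (adjusted p = 0.198), so neither passed. This scale moved the median of all genes to 0.14 in that comparison and to −0.12 in 84Q against 15Q.

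**Figure D4:**
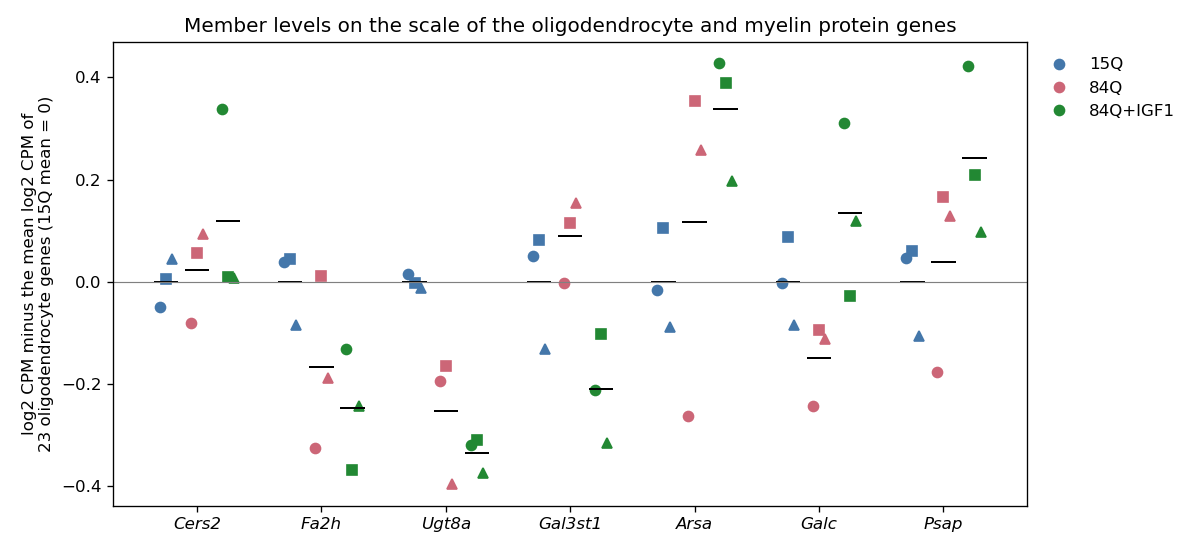
Log2 CPM of each gene minus the mean log2 CPM of 23 oligodendrocyte genes (vertical axis, set to 0 at the 15Q mean of each gene) in each library, with bars at the group means and the replicate shapes of the plot of CPM by library. Gal3st1 lies lower in 84Q+IGF1 than in 84Q, with a difference of −0.30, and Arsa, Galc and Psap lie 0.20 to 0.28 above 84Q on average, with overlap for Arsa and Psap, where the median of all genes moved by 0.26 on this scale.

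Among the other genes of the pathway, 0 were called in any comparison with 15Q. The ceramide supply genes had 16 of 17 genes tested, and their median log2 fold change was between 0.0099 and 0.03 in the comparisons with 15Q, with 0 passing the adjusted p alone. Cers6, Cers4 and Degs1, the most abundant of them, stood at 89.7 ± 15.0, 75.0 ± 2.12 and 66.1 ± 2.65 CPM in 15Q. Degs1, the desaturase that completes ceramide, stood on the log2 scale at 0.14 in 84Q (adjusted p = 0.211) and −0.04 in 84Q+IGF1 (adjusted p = 0.749) against 15Q.

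The 10 genes of galactose and sulfate donors, among them Papss1, which makes the sulfate donor, and Ugp2, which makes UDP-glucose, also had 0 passing. Papss1 stood at 69.1 ± 1.98 CPM in 15Q mice, 72.6 ± 0.419 in 84Q and 70.4 ± 3.06 in 84Q+IGF1, and Bpnt1, which degrades the product of sulfation, at 65.8 ± 2.25, 69.1 ± 3.34 and 67.8 ± 0.233 CPM. Ugp2 stood at 0.16 and 0.12 against 15Q on the log2 scale (adjusted p = 0.288 and 0.429). In 84Q+IGF1 against 84Q all 10 were below 0, at a median of −0.05.

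The 9 genes that give ceramide another head group, such as Cerk (ceramide kinase), B4galt6 (lactosylceramide) and St3gal5 (ganglioside GM3), had 0 passing in any comparison. Cerk stood at 289 ± 8.70 CPM in 15Q mice, 314 ± 25.3 in 84Q and 308 ± 34.2 in 84Q+IGF1. St3gal5 differed from 15Q by 0.13 and 0.12 on the log2 scale in 84Q and 84Q+IGF1 (adjusted p = 0.246 and 0.306), and B4galt6 of −0.07 and 0.01 (adjusted p = 0.511 and 0.915).

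Of 12 genes of lysosomal and related sphingolipid breakdown, 0 were called in 84Q against 15Q. Gba2, the non-lysosomal glucosylceramidase, was higher there and passed the adjusted p alone (0.20, adjusted p = 0.0838). The median of the list was 0.15 in 84Q, where Psap and Arsa stood at 0.15 and 0.24, and 0.07 in 84Q+IGF1. Smpd1, acid sphingomyelinase, stood at 0.23 in 84Q (adjusted p = 0.13), and Gm2a, the GM2 activator, at 0.05 (adjusted p = 0.78). Microglia are rich in lysosomes, and the 10 microglia genes summed to 181 to 226 CPM in 15Q, 225 to 275 in 84Q and 196 to 213 in 84Q+IGF1. In 84Q against 15Q 0 of these 10 were called, and their part in the result was not tested.

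Of 8 genes for prosaposin sorting and its receptors, 0 passed. Sorl1 and Lrp1, sorting and uptake receptors, stood at 1039 ± 18.3 and 1221 ± 44.1 CPM in 15Q, with log2 fold changes of −0.09 and −0.06 in 84Q (adjusted p = 0.422 and 0.747). Gpr37l1, a receptor proposed for prosaposin, stood at 0.20 (adjusted p = 0.195) in 84Q and 0.12 (adjusted p = 0.43) in 84Q+IGF1.

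Across the 9 libraries the synthesis members Fa2h and Ugt8a had a Pearson correlation of log2 CPM of 0.87, Fa2h and Gal3st1 of 0.76, and Ugt8a and Gal3st1 of 0.74, with Cers2 looser at 0.32 to 0.56. Arsa and Psap had 0.81, and Galc had −0.52 with Arsa and −0.20 with Psap. These values are descriptions over 9 libraries that share their groups, depth and scaling. The median correlation of the oligodendrocyte genes was 0.61 with the mean standardised level of the synthesis members and 0.01 with that of the breakdown members. The synthesis members also had a median correlation of 0.52 with the choroid plexus genes and of 0.52 with the meninges genes, and the breakdown members of −0.10 and −0.54. With the genes of the other tissues that were more abundant in 15Q, the breakdown members had medians of −0.70 (intestinal epithelium), −0.73 (epidermis) and −0.74 (skeletal muscle).

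Among 15929 genes with a mean of at least 1 CPM, the most similar to the synthesis members over the 9 libraries were Rsu1 (r = 0.94), Mospd1 (0.93), Vxn (0.92), 9630001P10Rik (0.92), Ttc39a (0.91), Gltp (0.91), 1700001O22Rik (0.91) and Myo1d (0.91). Gltp, the glycolipid transfer protein, had means of 50.5, 53.7 and 46.0 CPM in the 15Q, 84Q and 84Q+IGF1 mice. The most similar to the breakdown members were Emc1 (0.97), Vstm2l (0.96), Csk (0.96), Rbck1 (0.96), Marcks (0.96), Ppp2r2b (0.95), Ankrd13d (0.94) and Mfn2 (0.94). Emc1, a subunit of a membrane protein insertase, had means of 107, 114 and 112 CPM in the same order. None of these genes is in the oligodendrocyte list.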

How the data were processed

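Strand-specific, paired-end libraries of cerebellar RNA were made from 9 mice. The authors trimmed reads (Trimmomatic 0.36), aligned them to the mouse genome (HISAT2 2.2.0, GRCm38.p6) and counted them on genes (featureCounts), after base calling with bcl2fastq 2.20. The deposited values are unnormalized read counts per gene. The annotation and strand setting of the counting are not given in the sources used here. The reads and the human transgene were not analysed here.

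The members and gene lists were chosen with earlier results of these data known. Counts were fitted in edgeR 4.0.16 (R 4.3.3) with TMM, filterByExpr, 1 quasi-likelihood model of 3 groups over 9 libraries, and Benjamini-Hochberg adjustment over all 19353 genes kept. Tests are two-sided. Calls needed a fold of at least 1.5 and an adjusted p under 0.1, as in the study. Standard errors came from the F statistic. Log2 CPM used a prior count of 2, and TPM the union exon length in GENCODE vM21, which held 37681 of the genes. Groups did not overlap where all libraries of one lay above all of the other.

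Named genes were the 7 members, the 3 most abundant genes of each pathway list and of the oligodendrocyte list, up to 4 genes called against 15Q in each, and the 8 genes most like the synthesis and the 8 most like the breakdown members. Olig1, Olig2, Nkx6-2, Mal, Tspan2 and Cldn11, which passed the adjusted p alone, and Ttr, were named after their values were seen. Some genes that this rule names are not reported here. Libraries within a group differed beyond sampling noise (chi-square per gene 9.50 to 15.5), and are taken as separate mice, from the study's description.

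Alternatives were DESeq2 1.42.0, its size factors in edgeR, no filter, other thresholds, only the groups compared, a replicate block, Xist expression as covariate, scaling to the oligodendrocyte list, and each library left out. The 2 choroid plexus alternatives were chosen after seeing the data. The steps were tested on simulated counts with 200 changed genes. Promoter sequences are those of RefSeq.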

Additional observations from a re-analysis of the deposited data

How the results depend on the processing

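Depth limited Gal3st1 most, with 100 to 333 counts per library and the largest standard errors of the members (0.12 to 0.13 on the log2 scale between pairs of groups). The number of members called stayed at 0 under every alternative with a fold threshold. Without one it was 2 in the mean of 84Q and 84Q+IGF1 against 15Q and 2 in 84Q+IGF1 against 15Q, and list genes called in the former went from 25 to 42. Scaled to the oligodendrocyte list, the members' median log2 fold change in 84Q+IGF1 against 84Q went from −0.17 to 0.10, by the construction of that scale. With the replicate number as a block, Fa2h in 84Q+IGF1 against 15Q had an adjusted p of 0.085 and Ugt8a of 0.118, and in the mean comparison both had 0.157. Same-numbered libraries were not paired (correlations of −0.31 to 0.08), and with the block 271 in place of 435 genes were called in 84Q+IGF1 against 15Q, 242 in place of 414 in 84Q against 15Q. Without 15Q replicates 2 or 3, in turn, these counts were 244 and 226 in the former and 184 and 185 in the latter, which was 276 without 84Q replicate 3. In the mean comparison, adjusted p under 0.1 was kept by Fa2h in 2 of 9 fits that left out a library (log2 fold changes −0.24 to −0.17) and by Ugt8a in 3 of 9 (−0.36 to −0.24). With Xist as a covariate it was 0.0937 for Fa2h and 0.177 for Ugt8a there.

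In 84Q+IGF1 against 84Q, the oligodendrocyte scale turned Cers2 from −0.17 to 0.10, Arsa from −0.04 to 0.20 and Psap from −0.06 to 0.20, by its construction, and leaving out 1 library gave −0.14 to 0.05 for Arsa, which was also 0.05 without the 3 choroid plexus libraries, and −0.02 to 0.07 for Galc. For the other turns the cause was not tested. In 84Q+IGF1 against 15Q, Galc turned to 0.0039 with DESeq2 and 0.14 on the oligodendrocyte scale, and Cers2 to 0.12 on that scale and 0.048 without the 3 choroid plexus libraries. Leaving out 1 library gave −0.049 to 0.047 for Galc and −0.057 to 0.015 for Cers2 there, −0.046 to 0.010 for Galc in the mean comparison, and −0.10 to 0.0058 for Fa2h in 84Q against 15Q.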
